A study of Mus musculus with 12 samples.

Results

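The genes described here are 36 markers of vascular endothelium, taken by symbol from 27179 genes counted by RNA-seq in sorted thymic epithelial cells (TECs) of mice, in 12 libraries. All 36 had a counted row and all 36 passed the filter on low counts, among 19398 tested genes. Endothelial cells line blood and lymphatic vessels. Vascular growth factors and angiopoietins act on receptor tyrosine kinases of these cells, ETS and SOX transcription factors maintain their identity, and junction proteins such as CD31 and VE-cadherin hold them together. In the thymus, vessels admit T cell progenitors and let mature T cells leave. Cells that carried CD31, the protein of Pecam1, were removed in the sort, so each gene was measured in populations from which endothelial cells had been depleted.

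The 4 groups held 3 libraries each, all from C57BL/6 mice. They were mTEChi, which are medullary TECs with high MHC class II, from HOIL-deficient mice and from control mice, and cTECs, which are cortical TECs, from HOIL-deficient mice and from control mice. HOIL-deficient mice (Foxn1creT/+ HOILlox/lox, HOIL knock-out in the labels) carried Cre under Foxn1 and floxed Hoil (Rbck1), and control mice (Foxn1cre+/+ Hoillox/lox, wild type in the labels) carried the same floxed alleles without Cre, so the deletion was driven by a promoter of thymic epithelium. Foxn1-Cre is a model of deletion in the epithelial lineage, and no deletion was directed at endothelial cells. Cells were sorted as CD45-negative, TER-119-negative, CD31-negative and EpCAM-positive, with Ly51 marking cTECs and the lectin UEA1 marking mTEChi. The labels give no age, and they do not say that replicates came from separate mice. The p-values therefore measure a spread between libraries that may be technical. Replicate 3 of both HOIL-deficient groups was labelled female and the other 10 libraries male.

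Libraries held 7941217 to 14274333 counts. Gene coordinates are on GRCm38.p6. Levels are CPM, each gene's counts scaled to the library total, and n = 3 libraries per group throughout. Rbck1, the targeted gene, was at 10.9 to 23.3 CPM in HOIL-deficient mTEChi, 108 to 128 CPM in control mTEChi, 22 to 33 CPM in HOIL-deficient cTECs and 183 to 236 CPM in control cTECs. The cell types matched their labels: Aire, the medullary regulator, was at 783 to 1016 and 577 to 969 CPM in HOIL-deficient and control mTEChi, and at 1.66 CPM or less in every cTEC library. Epcam, the antigen used to keep epithelial cells, was at 766 to 824, 874 to 1025, 371 to 434 and 349 to 392 CPM in the groups in the same order, while Cdh5, the defining junction gene of endothelium, did not pass 39.5 CPM in any library. Others of the 36 genes reached higher levels, such as Pecam1 at 116 CPM and Cd36 at 716 CPM in HOIL-deficient mTEChi replicate 2.

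Endothelial transcripts were more abundant where HOIL was deficient, in mTEChi as in cTECs. Added over the 36 genes, they made up 666, 2287 and 1726 CPM in HOIL-deficient mTEChi, against 295, 278 and 383 CPM in control mTEChi. In cTECs the sum was 957, 1571 and 586 CPM in HOIL-deficient libraries, against 249.9, 132 and 213 CPM in control libraries. Every HOIL-deficient library lay above every control library of its cell type. In these bulk samples, more cells of a type and more RNA per cell cannot be told apart.

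Genes were tested over the whole table with edgeR's quasi-likelihood test, and a gene is called higher or lower when its Benjamini-Hochberg adjusted p is under 0.05. In mTEChi, 23 of the 36 genes were called higher in HOIL-deficient libraries, where 11.3% of all tested genes were, and all 36 log2 fold changes were above 0. No gene of the 36 was called lower by edgeR, DESeq2 or limma-voom (8.59% of all tested genes were, by edgeR), and none was lower at an unadjusted p under 0.05. In cTECs, 26 were called higher and 1, Flt4, lower, where 6.06% and 6.02% of all tested genes were. The median log2 fold change of the 36 genes was 2.05 in mTEChi, against -0.03 over all tested genes. In cTECs it was 2.64, or 2.59 with groups at 0 set to their bound, against -0.02 over all tested genes. Libraries did not overlap, with HOIL-deficient ones higher, for 23 genes in mTEChi (23.8% of all tested genes) and for 29 in cTECs (15.9%). The counts moved with the settings: 14 genes were called higher in mTEChi without control mTEChi replicate 2, and 15 in cTECs by limma-voom. With the male libraries only, 21 genes were called higher in mTEChi and 26 in cTECs. In mTEChi, upper-quartile scaling called 1708 genes of the whole table higher and 1979 lower, against 2191 and 1667 here, while 21 of the 36 were called higher.

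**Figure D1:**
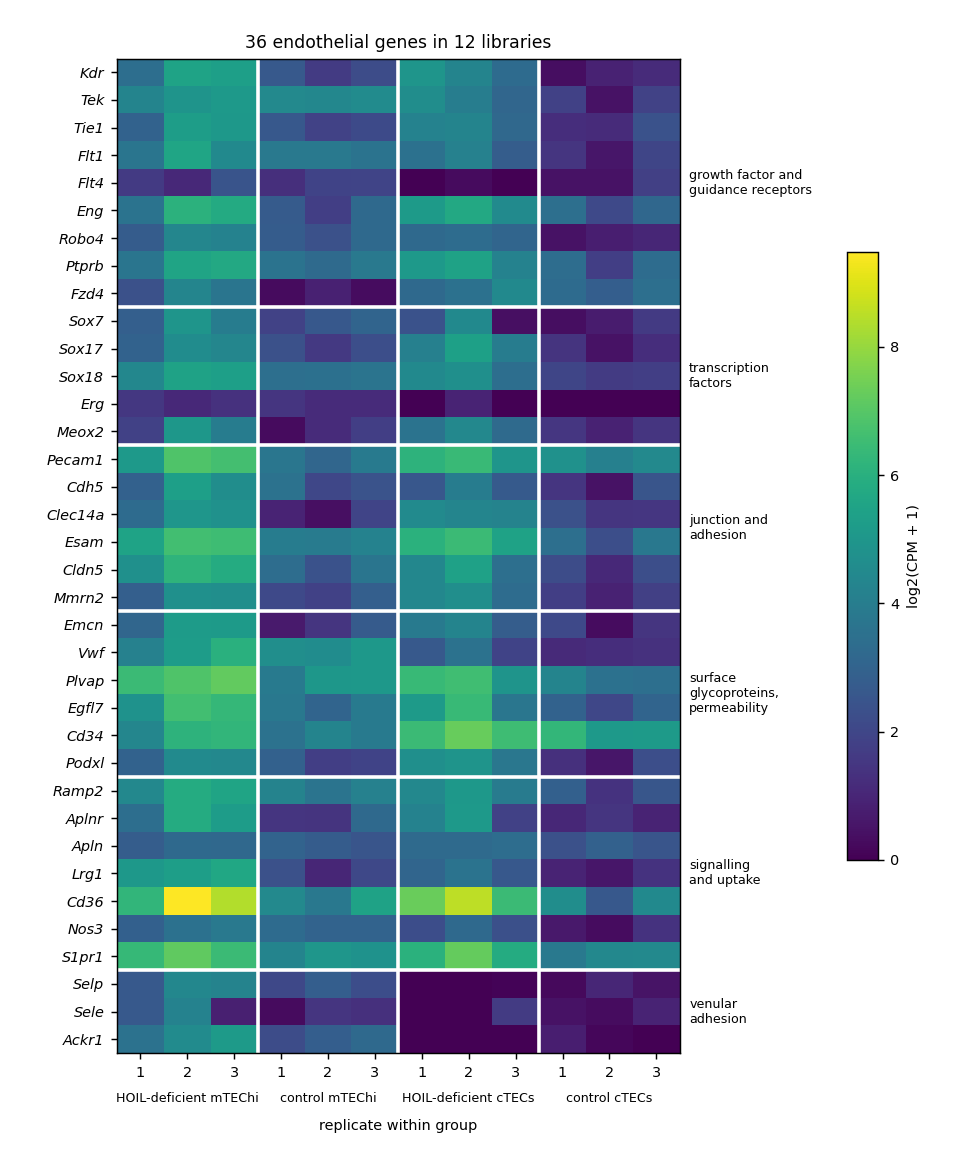
Level of each endothelial gene in each library, as log2(CPM + 1), with genes grouped by role down the page and replicates 1 to 3 of each group across it. Columns of HOIL-deficient groups are brighter than their control columns for most genes, and the venular genes Selp, Sele and Ackr1 are near 0 in all cTEC columns.

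Promoter sequences of 21 of the 36 genes were in a RefSeq table (GRCm38.p6), as 25 windows. They are shown for the 4 called genes with the smallest p in the cTEC comparison that had at least 150 bases outside annotated exons, because these genes moved together and a shared word can be looked for in them. Each runs 5′ to 3′ toward the gene, and capitals mark the words searched on both strands. For ETS factors the word was CAGGAA. A second word for ETS factors was CCGGAA. For SOX factors the word searched was ACAAT, and for GATA factors it was AGATAA. Robo4 is at chr9:37401722-37401896 (plus strand), Lrg1 at chr17:56122002-56122196 (minus strand), Cldn5 at chr16:18776597-18776846 (plus strand) and Clec14a at chr12:58269291-58269508 (minus strand).
Robo4: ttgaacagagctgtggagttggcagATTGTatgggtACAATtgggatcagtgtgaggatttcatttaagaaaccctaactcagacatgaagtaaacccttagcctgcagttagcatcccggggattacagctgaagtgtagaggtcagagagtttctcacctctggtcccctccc
Lrg1: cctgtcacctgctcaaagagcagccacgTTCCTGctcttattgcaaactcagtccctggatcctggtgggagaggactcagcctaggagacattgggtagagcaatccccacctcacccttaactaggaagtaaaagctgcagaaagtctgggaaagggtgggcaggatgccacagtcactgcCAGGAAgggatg
Cldn5: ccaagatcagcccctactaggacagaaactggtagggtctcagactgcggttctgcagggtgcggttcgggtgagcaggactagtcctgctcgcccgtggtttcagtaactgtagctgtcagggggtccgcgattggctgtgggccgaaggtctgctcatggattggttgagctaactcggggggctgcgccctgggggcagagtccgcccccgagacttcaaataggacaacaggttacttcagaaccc
Clec14a: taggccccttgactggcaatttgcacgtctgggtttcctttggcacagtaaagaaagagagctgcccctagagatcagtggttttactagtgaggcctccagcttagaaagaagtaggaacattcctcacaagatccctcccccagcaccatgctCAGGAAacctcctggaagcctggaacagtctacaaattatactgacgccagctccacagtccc
In these printed stretches, which leave out 75 bases of the window before the start for Robo4, 55 for Lrg1 and 32 for Clec14a, Robo4 held 2 SOX words and no ETS word, Lrg1 held 2 ETS words, Clec14a held 1 ETS word, and Cldn5 held none of the words. Counted over untrimmed windows, the whole 250 bases before the start, 14 of the 25 windows of endothelial genes (56.0%) held an ETS word, against 35.1% of 32851 windows in the table. In these whole windows Robo4 held 1 ETS word, Lrg1 held 3, and Clec14a held 1 SOX word beside its ETS word. A SOX word was in 7 (28.0%), against 27.7% of all windows, and a GATA word in 1 (4.0%), against 9.99%. No word searched contains another. A match says only that these letters are present.

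Receptors for vascular growth and guidance factors were called higher for 5 of 9 genes in mTEChi and for 7 of 9 in cTECs. Kdr (Entrez 16542, chromosome 5, 75932827 to 75979072), the main receptor of VEGF-A, had 9.77, 44 and 39.7 CPM in HOIL-deficient mTEChi, against 5.22, 2.17 and 3.59 CPM in control mTEChi. In cTECs Kdr had 29.8, 18.5 and 8.9 CPM in HOIL-deficient libraries, against 0.276, 0.881 and 1.24 CPM in control libraries. HOIL-deficient libraries lay above the control libraries in both cell types, without overlap, and control cTECs were close to 0. Kdr rose in mTEChi (log2 fold change 2.99 with SE 0.611 and adjusted p = 0.00461) and in cTECs (4.50, SE 0.71, adjusted p = 0.00163).

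Tek (Entrez 21687, chromosome 4, 94739086 to 94874976), the angiopoietin receptor, had 18.5, 28.9 and 32.9 CPM in HOIL-deficient mTEChi, against 21.1, 19.8 and 22.9 CPM in control mTEChi. In cTECs Tek had 24, 15.2 and 7.69 CPM in HOIL-deficient libraries, against 2.58, 0.378 and 2.69 CPM in control libraries. Only the control cTECs were low, and the mTEChi groups overlapped. Tek rose in cTECs (log2 fold change 2.92 with SE 0.525 and adjusted p = 0.00341), while its value in mTEChi was 0.27, SE 0.452, adjusted p = 0.725. Tie1, its orphan partner, rose in both, with 25.9 ± 16.6 CPM in HOIL-deficient mTEChi and 3.72 ± 1.26 CPM in control mTEChi (2.71, SE 0.613, adjusted p = 0.00816) and 14.7 ± 5.66 CPM in HOIL-deficient cTECs and 2.29 ± 1.68 CPM in control cTECs (2.59, SE 0.629, adjusted p = 0.0173). The cTEC call of Tie1 was lost in 3 of 14 settings (adjusted p up to 0.0853), among them those without control cTEC replicate 1 or 2.

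Robo4 (Entrez 74144, chromosome 9, 37401902 to 37414023), a guidance receptor of endothelium, had 5.72, 19.3 and 17.2 CPM in HOIL-deficient mTEChi, against 5.84, 4.14 and 8.56 CPM in control mTEChi. In cTECs Robo4 had 8.41, 9.12 and 7.62 CPM in HOIL-deficient libraries, against 0.368, 0.756 and 1.03 CPM in control libraries. The HOIL-deficient cTEC libraries were close to each other and above every control library, whereas the mTEChi groups overlapped. Robo4 rose in cTECs (log2 fold change 3.45 with SE 0.548 and adjusted p = 0.0017), and its value in mTEChi was 1.12, SE 0.458, adjusted p = 0.1. Flt1, the decoy-like VEGF receptor, averaged 26.9 ± 17.9 CPM in HOIL-deficient mTEChi and 12.5 ± 1.23 CPM in control mTEChi (1.03, SE 0.521, adjusted p = 0.182), and 11.3 ± 5.62 CPM in HOIL-deficient cTECs and 1.75 ± 1.25 CPM in control cTECs, where it rose (2.58, SE 0.592, adjusted p = 0.0131), a call lost in 1 of 14 settings (adjusted p up to 0.06), by limma-voom.

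Eng, the TGF-beta and BMP coreceptor endoglin, rose in mTEChi, with 44.5 ± 29.4 CPM in HOIL-deficient mTEChi and 5.49 ± 3.09 CPM in control mTEChi (2.94, SE 0.63, adjusted p = 0.00592), and in cTECs, with 36.3 ± 14.7 CPM in HOIL-deficient cTECs and 7.12 ± 3.48 CPM in control cTECs (2.25, SE 0.61, adjusted p = 0.0286). Ptprb, the phosphatase that restrains Tek, rose in mTEChi, with 36.4 ± 21.4 CPM in HOIL-deficient mTEChi and 11.1 ± 2.32 CPM in control mTEChi (1.64, SE 0.537, adjusted p = 0.0454), and in cTECs, with 31.3 ± 13 CPM in HOIL-deficient cTECs and 7.06 ± 4.04 CPM in control cTECs (2.05, SE 0.55, adjusted p = 0.027). The mTEChi call of Ptprb was lost in 11 of 14 settings (adjusted p up to 0.153), among them those without HOIL-deficient mTEChi replicate 2 or 3, or control mTEChi replicate 1, 2 or 3. Its cTEC call was lost in 6 of 14 settings (adjusted p up to 0.0864), among them those without HOIL-deficient cTEC replicate 1 or 2, or control cTEC replicate 2 or 3. The cTEC call of Eng was lost in 6 of 14 settings (adjusted p up to 0.0944), among them those without HOIL-deficient cTEC replicate 2, or control cTEC replicate 2 or 3.

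Fzd4 (Entrez 14366, chromosome 7, 89404366 to 89410110), the Frizzled receptor of Norrin and Wnt ligands, had 4.14, 18.9 and 12 CPM in HOIL-deficient mTEChi, against 0.205, 0.827 and 0.231 CPM in control mTEChi. In cTECs Fzd4 had 8.53, 10.8 and 21.9 CPM in HOIL-deficient libraries, against 8.93, 6.17 and 9.92 CPM in control libraries. Control mTEChi stood alone near 0, and the cTEC groups overlapped. Fzd4 rose in mTEChi (log2 fold change 4.69 with SE 0.678 and adjusted p = 0.000693), while its value in cTECs was 0.62, SE 0.518, adjusted p = 0.488.

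Flt4 (Entrez 14257, chromosome 11, 49609679 to 49652739), the VEGF-C receptor of lymphatic endothelium, had 2.07, 1.12 and 4.55 CPM in HOIL-deficient mTEChi, against 1.43, 2.79 and 2.89 CPM in control mTEChi, with overlap and log2 fold change 0.08 with SE 0.832 and adjusted p = 0.96. In cTECs Flt4 had 0, 0.205 and 0 CPM in HOIL-deficient libraries, against 0.368, 0.378 and 2.48 CPM in control libraries. It was close to its floor there, with 2 counts over the HOIL-deficient libraries and 31 over the control libraries, with control cTEC replicate 3 the highest. The ratio of pooled levels, control over HOIL-deficient, was 17.1 with an exact 95% counting interval of 4.36 to 148. Its call as lower (adjusted p = 0.0478) was lost in 7 of 13 settings, among them those without HOIL-deficient cTEC replicate 1 or 3 or control cTEC replicate 3, with adjusted p from 0.0228 to 0.272.

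Of 5 transcription factors, 3 were called higher in each cell type: Sox17, Sox18 and Meox2. Sox18 (Entrez 20672, chromosome 2, 181669837 to 181671640), a SOXF factor of blood and lymphatic vessels, had 20.1, 43.5 and 40.1 CPM in HOIL-deficient mTEChi, against 10.03, 10.4 and 11.6 CPM in control mTEChi. In cTECs Sox18 had 21.7, 25.2 and 9.88 CPM in HOIL-deficient libraries, against 2.95, 2.14 and 2.38 CPM in control libraries. Neither pair of groups overlapped, and both sets of control libraries were narrow. Sox18 had the smallest p of the 36 genes in cTECs (log2 fold change 2.83 with SE 0.3998 and adjusted p = 0.000788) and also rose in mTEChi (1.63, SE 0.363, adjusted p = 0.00742).

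Sox17 (Entrez 20671, chromosome 1, 4490928 to 4497426), the SOXF factor of arterial endothelium, had 6.91, 23.7 and 19.6 CPM in HOIL-deficient mTEChi, against 4.09, 1.96 and 3.82 CPM in control mTEChi. In cTECs Sox17 had 16.7, 40.5 and 15 CPM in HOIL-deficient libraries, against 1.66, 0.378 and 1.34 CPM in control libraries. The groups did not overlap in either cell type, and replicate 2 was the highest library of each HOIL-deficient group. Sox17 rose in mTEChi (log2 fold change 2.26 with SE 0.564 and adjusted p = 0.0134) and in cTECs (4.28, SE 0.632, adjusted p = 0.00104). Its mTEChi call was lost in 2 of 14 settings (adjusted p up to 0.0546), those without HOIL-deficient mTEChi replicate 2, or control mTEChi replicate 2. Sox7 (Entrez 20680, chromosome 14, 63943706 to 63950732), the third SOXF gene, had 6.41, 29.5 and 15 CPM in HOIL-deficient mTEChi, against 2.66, 5.17 and 7.29 CPM in control mTEChi, and in cTECs 4.26, 21.9 and 0.302 CPM in HOIL-deficient libraries, against 0.276, 0.63 and 2.07 CPM in control libraries. HOIL-deficient libraries were spread widely and overlapped the controls. No comparison in the edgeR fit of all 12 libraries called Sox7 (mTEChi 1.70, SE 0.963, adjusted p = 0.235, and cTECs 3.07, SE 1.1, adjusted p = 0.085). In cTECs 3 of 14 alternative settings called Sox7 higher: DESeq2, male libraries only, and without HOIL-deficient cTEC replicate 3. In mTEChi 1 of 14 did, that with only the groups compared. Between cell types, 4 of 14 settings called it in control mice and 2 of 14 in HOIL-deficient mice. Meox2, a homeobox gene of vascular cells, rose in mTEChi, with 16.2 ± 14.4 CPM in HOIL-deficient mTEChi and 1.29 ± 1.11 CPM in control mTEChi (3.61, SE 0.822, adjusted p = 0.00839), and in cTECs, with 13.6 ± 6.35 CPM in HOIL-deficient cTECs and 1.49 ± 0.531 CPM in control cTECs (3.07, SE 0.801, adjusted p = 0.0239). The cTEC call of Meox2 was lost in 4 of 14 settings (adjusted p up to 0.0843), among them those without HOIL-deficient cTEC replicate 2, or control cTEC replicate 2 or 3.

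Erg, an ETS factor that maintains endothelial identity, was low. It was at 1.12 to 1.87 CPM in HOIL-deficient mTEChi and 1.24 to 1.74 CPM in control mTEChi (log2 fold change 0.02, adjusted p = 0.993). In cTECs it had counts in 1 HOIL-deficient library, at 0.922 CPM, and none in the control libraries, where 0 counts allow up to 0.105 CPM over the group. With control cTECs set to that limit, the pooled level was 2.72-fold higher in HOIL-deficient cTECs, which had 9 counts. The gene was not called (adjusted p = 0.161).

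Junction and adhesion genes were called higher for 5 of 6 in mTEChi and for 5 of 6 in cTECs, the exception in both being Cdh5. Pecam1 (Entrez 18613, chromosome 11, 106654213 to 106715281), whose protein was the antigen of the depletion, had 34.1, 116 and 98.4 CPM in HOIL-deficient mTEChi, against 12.1, 7.65 and 13.7 CPM in control mTEChi. In cTECs Pecam1 had 69.7, 84.7 and 29.7 CPM in HOIL-deficient libraries, against 26.5, 16.4 and 21.3 CPM in control libraries. HOIL-deficient libraries lay above controls in both cell types, clearly in mTEChi and by a small margin in cTECs. Pecam1 rose in mTEChi (log2 fold change 2.82 with SE 0.465 and adjusted p = 0.00145). Its call in cTECs (1.43, SE 0.44, adjusted p = 0.048) was lost in 8 of 14 settings, with adjusted p from 0.00835 to 0.161, including those without HOIL-deficient cTEC replicate 1 or 2 and without any 1 of the control cTEC libraries.

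Cdh5 (Entrez 12562, chromosome 8, 104101613 to 104144504), which encodes VE-cadherin, had 6.61, 39.5 and 24.2 CPM in HOIL-deficient mTEChi, against 11, 3.1 and 4.4 CPM in control mTEChi. In cTECs Cdh5 had 4.97, 14.8 and 5.51 CPM in HOIL-deficient libraries, against 1.75, 0.378 and 4.65 CPM in control libraries. The mTEChi groups overlapped, and the cTEC groups were separated by a narrow gap. No comparison in the edgeR fit of all 12 libraries called the gene (mTEChi 1.82, SE 0.751, adjusted p = 0.104, and cTECs 1.80, SE 0.794, adjusted p = 0.162). Alternatives called Cdh5 only between cell types, as higher in mTEChi, in 2 of 14 settings in each genotype. Its fitted change in cTECs was larger than that of Pecam1, with a wider error.

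Clec14a (Entrez 66864, chromosome 12, 58264720 to 58269258), a C-type lectin of endothelium, had 9.08, 31 and 26.5 CPM in HOIL-deficient mTEChi, against 0.921, 0.31 and 2.89 CPM in control mTEChi. In cTECs Clec14a had 22.4, 18.8 and 17.8 CPM in HOIL-deficient libraries, against 4.05, 1.76 and 1.86 CPM in control libraries. The HOIL-deficient cTEC libraries were alike, the HOIL-deficient mTEChi libraries were not, and HOIL-deficient and control libraries did not overlap in either cell type. Clec14a rose in mTEChi (log2 fold change 3.96 with SE 0.643 and adjusted p = 0.00132) and in cTECs (2.82, SE 0.598, adjusted p = 0.0085). Mmrn2, the matrix protein that Clec14a binds, rose with 19.3 ± 11.2 CPM in HOIL-deficient mTEChi and 4.08 ± 2.01 CPM in control mTEChi (2.18, SE 0.567, adjusted p = 0.0165) and with 17.9 ± 7.8 CPM in HOIL-deficient cTECs and 1.92 ± 0.899 CPM in control cTECs (3.11, SE 0.602, adjusted p = 0.00513). The mTEChi call of Mmrn2 was lost in 4 of 14 settings (adjusted p up to 0.0778), those without HOIL-deficient mTEChi replicate 2 or 3, or control mTEChi replicate 1 or 2.

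Esam (Entrez 69524, chromosome 9, 37528089 to 37538319), an adhesion molecule of endothelial cells and platelets, had 44.6, 95.8 and 92.8 CPM in HOIL-deficient mTEChi, against 14.6, 14.4 and 17.4 CPM in control mTEChi. In cTECs Esam had 65.1, 87.2 and 43.7 CPM in HOIL-deficient libraries, against 10.1, 3.9 and 12.8 CPM in control libraries. All 6 HOIL-deficient libraries were above all 6 control libraries. Esam rose in mTEChi (log2 fold change 2.26 with SE 0.387 and adjusted p = 0.00178) and in cTECs (2.77, SE 0.3998, adjusted p = 0.000907). Cldn5, the claudin of endothelial tight junctions, rose with 50.9 ± 22.3 CPM in HOIL-deficient mTEChi and 8.49 ± 3.87 CPM in control mTEChi (2.51, SE 0.563, adjusted p = 0.00778) and with 24.2 ± 16.6 CPM in HOIL-deficient cTECs and 2.85 ± 1.49 CPM in control cTECs (2.98, SE 0.6004, adjusted p = 0.00657). The cTEC call of Cldn5 was lost in 1 of 14 settings (adjusted p up to 0.0563), by limma-voom.

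**Figure D2:**
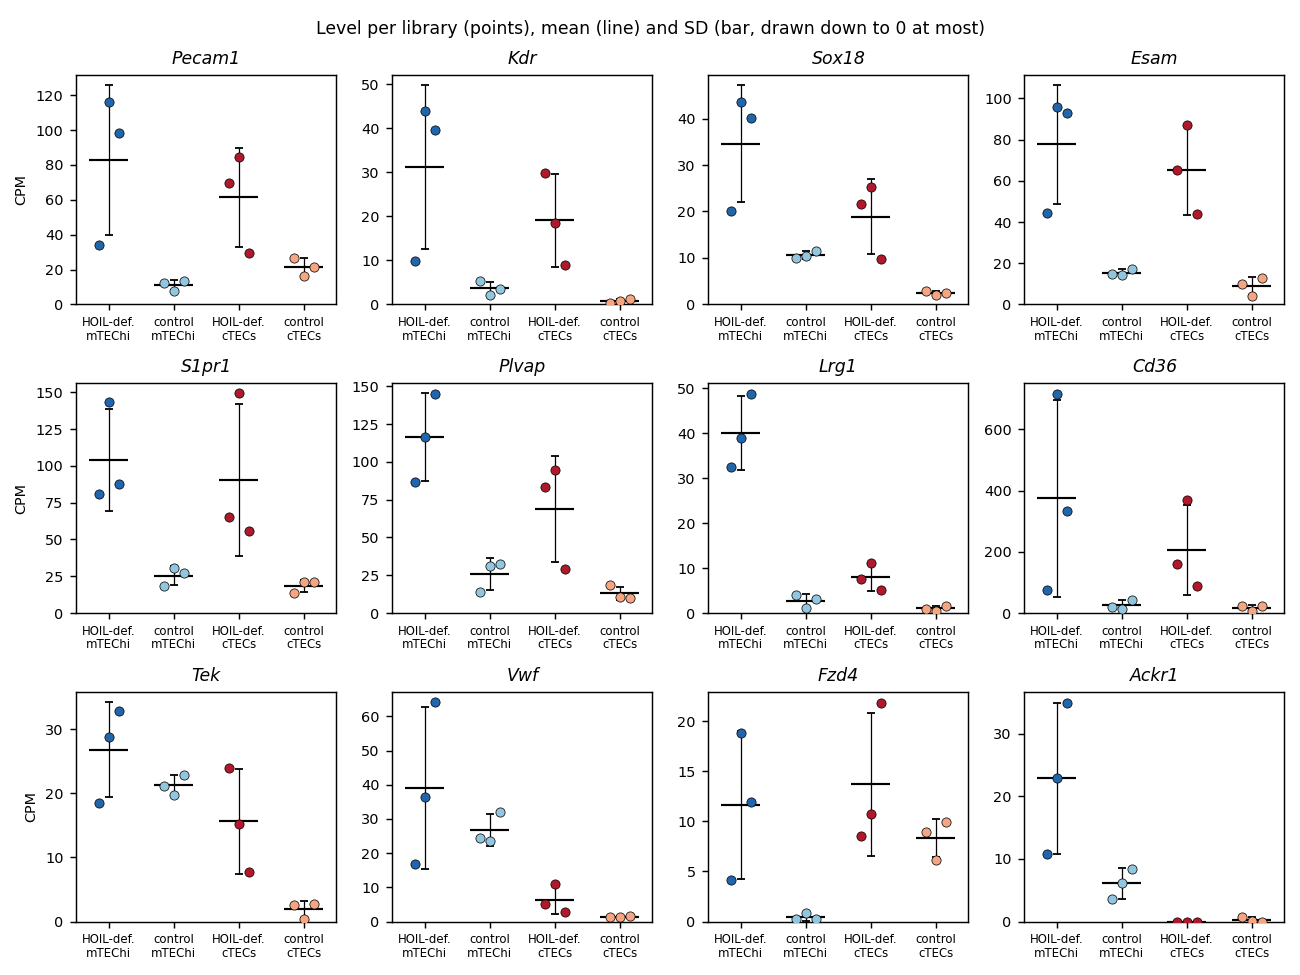
CPM of 12 endothelial genes in each library (points), with the mean (line) and SD (bar, drawn down to 0 at most) of each group. Esam and S1pr1 separate HOIL-deficient from control libraries in both cell types, Tek is low in control cTECs, Vwf is low in both cTEC groups, Fzd4 is low only in control mTEChi, and Ackr1 is near 0 in all cTEC libraries.

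Surface glycoproteins and permeability genes were called higher for 5 of 6 genes in each cell type, the exception being Vwf in mTEChi and Cd34 in cTECs. Plvap (Entrez 84094, chromosome 8, 71497753 to 71511806), the diaphragm protein of fenestrated and venular endothelium, had 87, 117 and 145 CPM in HOIL-deficient mTEChi, against 13.7, 31.2 and 32.5 CPM in control mTEChi. In cTECs Plvap had 83.2, 94.6 and 29.2 CPM in HOIL-deficient libraries, against 18.2, 10.6 and 10.02 CPM in control libraries. The groups did not overlap, with the narrower gap in cTECs. Plvap rose in mTEChi (log2 fold change 2.13 with SE 0.416 and adjusted p = 0.00368) and in cTECs (2.32, SE 0.426, adjusted p = 0.00382).

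Vwf (Entrez 22371, chromosome 6, 125552948 to 125686679), which encodes von Willebrand factor of endothelium and platelets, had 17, 36.4 and 64.1 CPM in HOIL-deficient mTEChi, against 24.6, 23.7 and 32.1 CPM in control mTEChi. In cTECs Vwf had 5.21, 10.9 and 2.79 CPM in HOIL-deficient libraries, against 1.2, 1.39 and 1.55 CPM in control libraries. The mTEChi groups overlapped and all cTEC libraries were below all mTEChi libraries. Vwf rose in cTECs (log2 fold change 2.09 with SE 0.555 and adjusted p = 0.0258), a call lost in 6 of 14 settings (adjusted p from 0.00115 to 0.259), among them those without HOIL-deficient cTEC replicate 2 or without any 1 of the control cTEC libraries. Its value in mTEChi was 0.48, SE 0.452, adjusted p = 0.488.

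Emcn, the sialomucin endomucin, rose in mTEChi, with 26.2 ± 16 CPM in HOIL-deficient mTEChi and 2.68 ± 2.65 CPM in control mTEChi (3.25, SE 0.815, adjusted p = 0.0137), a call lost in 2 of 14 settings (adjusted p up to 0.0679), those without control mTEChi replicate 1 or 2. In cTECs it had 12.5 ± 6.23 CPM in HOIL-deficient cTECs and 1.77 ± 1.53 CPM in control cTECs and passed narrowly (2.68, SE 0.82, adjusted p = 0.0476), a call lost in 9 of 14 settings (adjusted p up to 0.135), among them those without HOIL-deficient cTEC replicate 1 or 2, or control cTEC replicate 2 or 3. Egfl7, a secreted factor of endothelium, rose with 67.8 ± 36.3 CPM in HOIL-deficient mTEChi and 11.4 ± 3.65 CPM in control mTEChi (2.49, SE 0.611, adjusted p = 0.0122) and with 43.4 ± 36 CPM in HOIL-deficient cTECs and 5.72 ± 2.34 CPM in control cTECs (2.83, SE 0.633, adjusted p = 0.0114). The call of Egfl7 was lost in mTEChi in 1 of 14 settings (adjusted p up to 0.0524), that without control mTEChi replicate 2, and in cTECs in 1 of 14 settings (adjusted p up to 0.124), by limma-voom. Podxl, the sialomucin podocalyxin, rose with 16.5 ± 8.46 CPM in HOIL-deficient mTEChi and 3.97 ± 2.42 CPM in control mTEChi (1.95, SE 0.624, adjusted p = 0.0411) and with 22.3 ± 8.7 CPM in HOIL-deficient cTECs and 1.93 ± 1.71 CPM in control cTECs (3.43, SE 0.672, adjusted p = 0.00554). The mTEChi call of Podxl was lost in 7 of 14 settings (adjusted p up to 0.136), among them those without HOIL-deficient mTEChi replicate 2 or 3, or control mTEChi replicate 2 or 3. Cd34, a sialomucin that endothelium shares with progenitor and stromal cells, rose in mTEChi, with 54.7 ± 30.8 CPM in HOIL-deficient mTEChi and 14.4 ± 3.68 CPM in control mTEChi (1.87, SE 0.455, adjusted p = 0.0118), a call lost in 1 of 14 settings (adjusted p up to 0.0685), that without control mTEChi replicate 1. In cTECs Cd34 averaged 112 ± 37.5 CPM in HOIL-deficient cTECs and 48.7 ± 24.2 CPM in control cTECs (1.10, SE 0.435, adjusted p = 0.119).

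Genes of signalling and uptake were called higher for 4 of 7 in mTEChi and 6 of 7 in cTECs. S1pr1 (Entrez 13609, chromosome 3, 115710433 to 115715055), the sphingosine 1-phosphate receptor of vessels and of T cells that leave the thymus, had 80.8, 144 and 87.5 CPM in HOIL-deficient mTEChi, against 18.3, 30.4 and 27.3 CPM in control mTEChi. In cTECs S1pr1 had 65.5, 149 and 56 CPM in HOIL-deficient libraries, against 13.4, 20.8 and 20.9 CPM in control libraries. All 6 HOIL-deficient libraries were above all 6 control libraries. S1pr1 rose in mTEChi (log2 fold change 1.98 with SE 0.356 and adjusted p = 0.00233) and in cTECs (2.22, SE 0.362, adjusted p = 0.00196).

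Lrg1 (Entrez 76905, chromosome 17, 56119678 to 56121946), a secreted glycoprotein that modifies TGF-beta signalling in vessels, had 32.4, 38.9 and 48.7 CPM in HOIL-deficient mTEChi, against 4.09, 1.03 and 3.12 CPM in control mTEChi. In cTECs Lrg1 had 7.46, 11.2 and 5.05 CPM in HOIL-deficient libraries, against 0.921, 0.504 and 1.65 CPM in control libraries. Control libraries of both cell types were low, and the HOIL-deficient mTEChi libraries were high and close together. Lrg1 had the smallest p of the 36 genes in mTEChi (log2 fold change 3.77 with SE 0.498 and adjusted p = 0.000414) and also rose in cTECs (2.82, SE 0.53, adjusted p = 0.00433).

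Cd36, a fatty acid transporter of capillaries, adipocytes, macrophages and platelets, had the largest SD between HOIL-deficient libraries of the 36 genes, in CPM. It had 75.6, 716 and 334 CPM in HOIL-deficient mTEChi, against 21.1, 12.8 and 43.4 CPM in control mTEChi. In cTECs Cd36 had 159.9, 370.4 and 87.3 CPM in HOIL-deficient libraries, against 23.9, 5.04 and 21.4 CPM in control libraries. Replicate 2 held the highest value of each HOIL-deficient group, and the groups did not overlap. Cd36 rose in mTEChi (log2 fold change 3.79 with SE 0.899 and adjusted p = 0.0149) and in cTECs (3.52, SE 0.895, adjusted p = 0.0285). Its mTEChi call was lost in 2 of 14 settings (adjusted p up to 0.0608), those without control mTEChi replicate 1 or 2. Its cTEC call was lost in 6 of 14 settings (adjusted p up to 0.0964), among them those without HOIL-deficient cTEC replicate 2, or control cTEC replicate 1, 2 or 3. Without Cd36 the summed level of the other 35 genes was still 590.01, 1571 and 1392 CPM in HOIL-deficient mTEChi, against 274, 265 and 339.9 CPM in control mTEChi. In cTECs it was 797, 1200.5 and 498 CPM in HOIL-deficient libraries, against 226, 127 and 192 CPM in control libraries.

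Aplnr, the apelin receptor, rose with 34.2 ± 23.2 CPM in HOIL-deficient mTEChi and 3.95 ± 3.9 CPM in control mTEChi (3.07, SE 0.85, adjusted p = 0.0225) and with 17.9 ± 15.6 CPM in HOIL-deficient cTECs and 1.27 ± 0.439 CPM in control cTECs (3.75, SE 0.934, adjusted p = 0.0198). The mTEChi call of Aplnr was lost in 5 of 14 settings (adjusted p up to 0.11), among them those without HOIL-deficient mTEChi replicate 2, or control mTEChi replicate 1 or 2. Its cTEC call was lost in 5 of 14 settings (adjusted p up to 0.219), among them those without HOIL-deficient cTEC replicate 2, or control cTEC replicate 1 or 3. Apln, its ligand, stayed within 5.92 to 8.41 CPM in HOIL-deficient mTEChi and 4.63 to 7.17 CPM in control mTEChi (0.28, SE 0.342, adjusted p = 0.609). It was at 8.64 to 9.5 CPM in HOIL-deficient cTECs and 4.14 to 6.8 CPM in control cTECs (0.70, SE 0.344, adjusted p = 0.206), and no comparison called it. Ramp2, the partner of the adrenomedullin receptor, averaged 40.6 ± 18.3 CPM in HOIL-deficient mTEChi and 15.6 ± 3.44 CPM in control mTEChi (1.30, SE 0.451, adjusted p = 0.0567) and 22.4 ± 9.03 CPM in HOIL-deficient cTECs and 4.31 ± 2.48 CPM in control cTECs, where it rose (2.26, SE 0.484, adjusted p = 0.00895). In mTEChi 4 of 14 settings called Ramp2 higher: DESeq2, limma-voom, only the groups compared, and without HOIL-deficient mTEChi replicate 1.

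Nos3 (Entrez 18127, chromosome 5, 24364816 to 24384474), the endothelial nitric oxide synthase, had 6.51, 10.6 and 13.1 CPM in HOIL-deficient mTEChi, against 8.91, 7.03 and 7.06 CPM in control mTEChi. In cTECs Nos3 had 3.67, 8.5 and 3.92 CPM in HOIL-deficient libraries, against 0.553, 0.252 and 1.65 CPM in control libraries. Only control cTECs were low, and the mTEChi groups overlapped. Nos3 rose in cTECs (log2 fold change 2.60 with SE 0.585 and adjusted p = 0.0118), a call lost in 1 of 14 settings (adjusted p up to 0.0526), that with only the groups compared, and its value in mTEChi was 0.32, SE 0.501, adjusted p = 0.699.

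Of 3 genes of venular adhesion, 1 was called higher in mTEChi, and in cTECs none was called by edgeR, while DESeq2 called Selp and Ackr1 lower and 2 of the 3 had an unadjusted p under 0.05. Ackr1 (Entrez 13349, chromosome 1, 173331886 to 173333503), the atypical chemokine receptor of venules and erythroid cells, had 10.9, 22.9 and 35 CPM in HOIL-deficient mTEChi, against 3.58, 6.2 and 8.45 CPM in control mTEChi. In cTECs it had no count in the HOIL-deficient libraries, which allows up to 0.0953 CPM over the group, against 0.737, 0.126 and 0 CPM in control cTECs. All HOIL-deficient mTEChi libraries were above the control ones, and all cTEC libraries were below both. It rose in mTEChi (log2 fold change 1.86 with SE 0.603 and adjusted p = 0.048), a call lost in 9 of 14 settings (adjusted p up to 0.201), among them those without HOIL-deficient mTEChi replicate 2 or 3, or control mTEChi replicate 1, 2 or 3. In cTECs the pooled level was 3.31-fold lower in HOIL-deficient libraries when these were set to that limit. The 9 control counts were taken as exact, and the gene was not called (adjusted p = 0.107).

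Selp (Entrez 20344, chromosome 1, 164115264 to 164150026), which encodes P-selectin of venules and platelets, had 5.23, 19.99 and 18.1 CPM in HOIL-deficient mTEChi, against 3.17, 6.2 and 3.7 CPM in control mTEChi. In cTECs Selp had 0, 0 and 0.0754 CPM in HOIL-deficient libraries, against 0.184, 1.01 and 0.413 CPM in control libraries. The mTEChi groups overlapped in 1 library, and the HOIL-deficient cTECs held 1 count in all against 14 in control cTECs, a control over HOIL-deficient ratio of 15.5 (exact 95% counting interval 2.35 to 654). Neither change passed the threshold in the edgeR fit of all 12 libraries (mTEChi 1.67, SE 0.565, adjusted p = 0.0512, and cTECs adjusted p = 0.0507). In mTEChi 3 of 14 settings called Selp higher: DESeq2, only the groups compared, and without HOIL-deficient mTEChi replicate 1. In cTECs 3 of 13 called it lower: DESeq2, a replicate block, and without control cTEC replicate 1. Sele, which encodes E-selectin, had 5.23, 17.5 and 0.771 CPM in HOIL-deficient mTEChi, against 0.205, 1.76 and 1.5 CPM in control mTEChi. In cTECs Sele had 0, 0 and 2.11 CPM in HOIL-deficient libraries, against 0.368, 0.252 and 0.93 CPM in control libraries. Its libraries overlapped in both cell types and it was not called (mTEChi 2.72, SE 1.22, adjusted p = 0.134, and cTECs 0.43, SE 1.34, adjusted p = 0.923). In mTEChi 1 of 14 settings called Sele higher, that with male libraries only.

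Called higher in both cell types were 20 of the 36 genes. Genes called higher in cTECs and not in mTEChi numbered 6, which were Tek, Flt1, Vwf, Robo4, Ramp2 and Nos3. Genes called higher in mTEChi and not in cTECs numbered 3, which were Cd34, Fzd4 and Ackr1. Called higher in neither were Cdh5, Flt4, Sox7, Erg, Apln, Selp and Sele. A call in 1 cell type alone does not show a difference, so the effects were compared directly, as the mTEChi effect minus the cTEC effect.

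**Figure D3:**
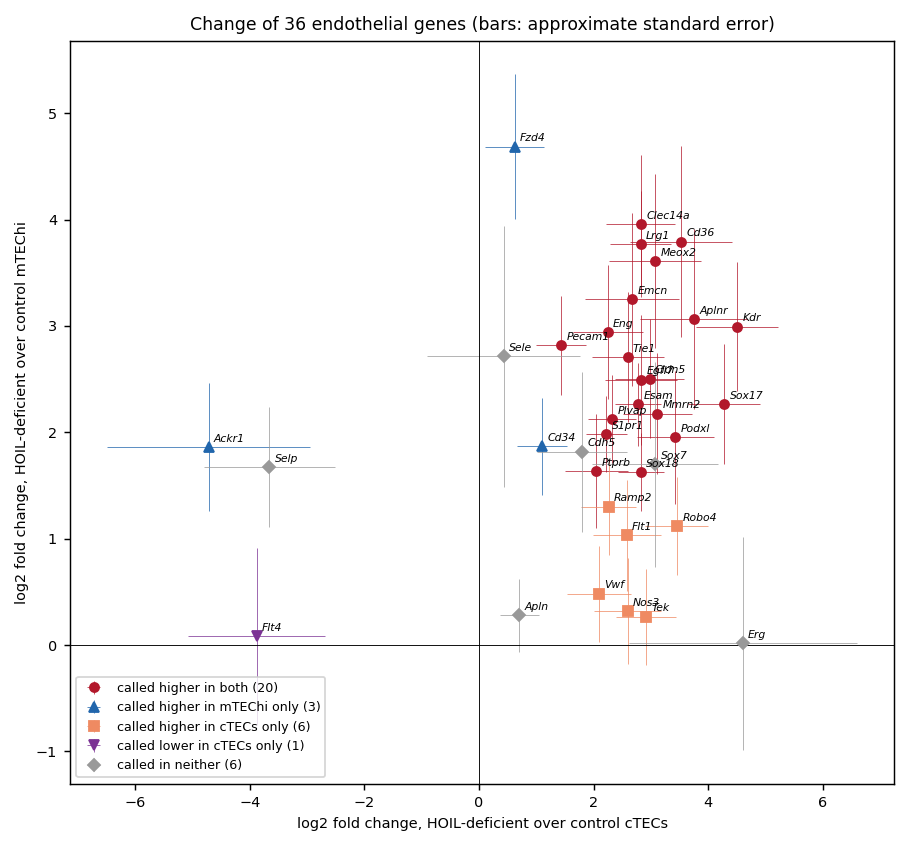
Log2 fold change of each endothelial gene, HOIL-deficient over control, in cTECs (horizontal) and mTEChi (vertical), with approximate standard errors as bars and symbols by call. The 20 genes called in both lie in the upper right, and Tek, Vwf and Nos3 lie low on the right. Flt4, Selp and Ackr1 lie on the left and Erg at the far right, with cTEC values that rest on few counts and depend on the prior count.

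Of the 36 effects, 3 were larger and 1 was smaller in mTEChi, where 5.97% and 3.86% of all tested genes were. The effect on Fzd4 was larger in mTEChi by 4.06 in log2 units (SE 0.85, adjusted p = 0.0109), and this call held in all 19 alternative settings. Selp had an effect larger by 5.33 (SE 1.26, adjusted p = 0.019) and Ackr1 by 6.58 (SE 1.82, adjusted p = 0.0417). Both rest on HOIL-deficient cTECs with at most 1 count. The call was lost for Selp without control cTEC replicate 2 and with male libraries only (adjusted p from 0.00411 to 0.0586), and for Ackr1 in 14 of 19 settings (adjusted p from 0.00226 to 0.281). For Tek the difference was -2.66 (SE 0.687, adjusted p = 0.0278), lost in 5 of 19 settings, those without HOIL-deficient cTEC replicate 1, HOIL-deficient mTEChi replicate 1 or 2, or control mTEChi replicate 1 or 3 (adjusted p from 0.00114 to 0.0644). Robo4 was just outside, at -2.33 (SE 0.704, adjusted p = 0.0507), and Nos3 was at -2.28 (SE 0.765, adjusted p = 0.0747). For Flt1, Vwf, Ramp2 and Cd34, also called in 1 cell type only, no difference between the effects was called.

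In control mice, 15 of the 36 genes were higher in mTEChi than in cTECs and 2 were lower, where 37.8% and 26.4% of all tested genes were, so their share of higher calls was near the background. Their median log2 fold change was 1.21, against 0.24 over all tested genes, and RLE scaling moved that last median to 0.43. The 5 with the smallest p were Vwf (log2 fold change 4.37 with SE 0.562 and adjusted p = 1.47e-05), Tek (3.55, SE 0.531, adjusted p = 5.71e-05), Fzd4 (-4.18, SE 0.676, adjusted p = 0.000112), Robo4 (3.20, SE 0.549, adjusted p = 0.00018) and Nos3 (3.30, SE 0.59, adjusted p = 0.000255). Fzd4 was thus the reverse of the others, at 0.205 to 0.827 CPM in control mTEChi and 6.17 to 9.92 CPM in control cTECs. Cd34 was the other gene lower in control mTEChi (-1.68, SE 0.454, adjusted p = 0.005). With control cTECs set to a floor of 3 counts, Erg was 13.5-fold higher in control mTEChi, with 40 counts against 0.

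Called higher in control mTEChi besides these were Flt1 (2.91, SE 0.596, adjusted p = 0.000742), Sox18 (2.18, SE 0.398, adjusted p = 0.000302), Ackr1 (4.32, SE 0.793, adjusted p = 0.000493), Selp (3.14, SE 0.677, adjusted p = 0.00108) and Ramp2 (1.94, SE 0.483, adjusted p = 0.00305). The others were Erg, Kdr, Cldn5, Lrg1, Sox17 and Plvap, with adjusted p from 0.00463 to 0.0388. Of these, the call of Kdr was lost in 3 of 14 settings (adjusted p up to 0.122), among them those without control mTEChi replicate 1, or control cTEC replicate 1. That of Cldn5 was lost in 4 of 14 settings (adjusted p up to 0.159), among them those without control mTEChi replicate 1 or 3, or control cTEC replicate 2. That of Lrg1 was lost in 6 of 14 settings (adjusted p up to 0.143), among them those without control mTEChi replicate 1 or 3, or control cTEC replicate 1 or 2. Sox17 lost its call in 6 of 14 settings (adjusted p up to 0.157), among them those without control mTEChi replicate 1 or 3, or control cTEC replicate 2 or 3. Plvap lost its call in 7 of 14 settings (adjusted p up to 0.145), among them those without control mTEChi replicate 2 or 3, or control cTEC replicate 2 or 3. Pecam1 was not called (-0.84, SE 0.45, adjusted p = 0.114), with the lower values in control mTEChi.

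In HOIL-deficient mice, 8 of the 36 genes were higher in mTEChi than in cTECs, where 32.0% of all tested genes were, and their median was 0.91, against 0.19 over all tested genes. None was called lower in mTEChi by edgeR, DESeq2 or limma-voom (16.4% of all tested genes were lower, by edgeR), and none was lower at an unadjusted p under 0.05. Ackr1, Selp and Flt4 had the largest fitted values and few counts or none in HOIL-deficient cTECs. With HOIL-deficient cTECs set to a floor of 3 counts, Ackr1 was 255-fold higher in HOIL-deficient mTEChi, with 854 counts against 0. This fold has no interval. Selp had a ratio of 471 (exact 95% counting interval 84.2 to 18650) with 526 counts against 1, and Flt4 had a ratio of 43.9 (11.8 to 368) with 98 counts against 2. Vwf (log2 fold change 2.76 with SE 0.491 and adjusted p = 0.000346) and Lrg1 (2.46, SE 0.459, adjusted p = 0.000509) were also higher, as were Sox18 (0.98, SE 0.354, adjusted p = 0.0328), Sele (3.48, SE 1.26, adjusted p = 0.0342) and Flt1 (1.36, SE 0.525, adjusted p = 0.0446). The call of Sox18 was lost in 5 of 14 settings (adjusted p up to 0.299), among them those without HOIL-deficient mTEChi replicate 2 or 3, or HOIL-deficient cTEC replicate 3. That of Sele was lost in 4 of 14 settings (adjusted p up to 0.214), among them those without HOIL-deficient mTEChi replicate 2, or HOIL-deficient cTEC replicate 1 or 2. That of Flt1 was lost in 8 of 14 settings (adjusted p up to 0.302), among them those without HOIL-deficient mTEChi replicate 2 or 3, or HOIL-deficient cTEC replicate 1 or 3. The count of 8 moved to 16 without HOIL-deficient cTEC replicate 2, to 13 without HOIL-deficient mTEChi replicate 1 and to 5 without HOIL-deficient mTEChi replicate 2. The comparisons between cell types and those between genotypes share the same libraries.

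**Figure D4:**
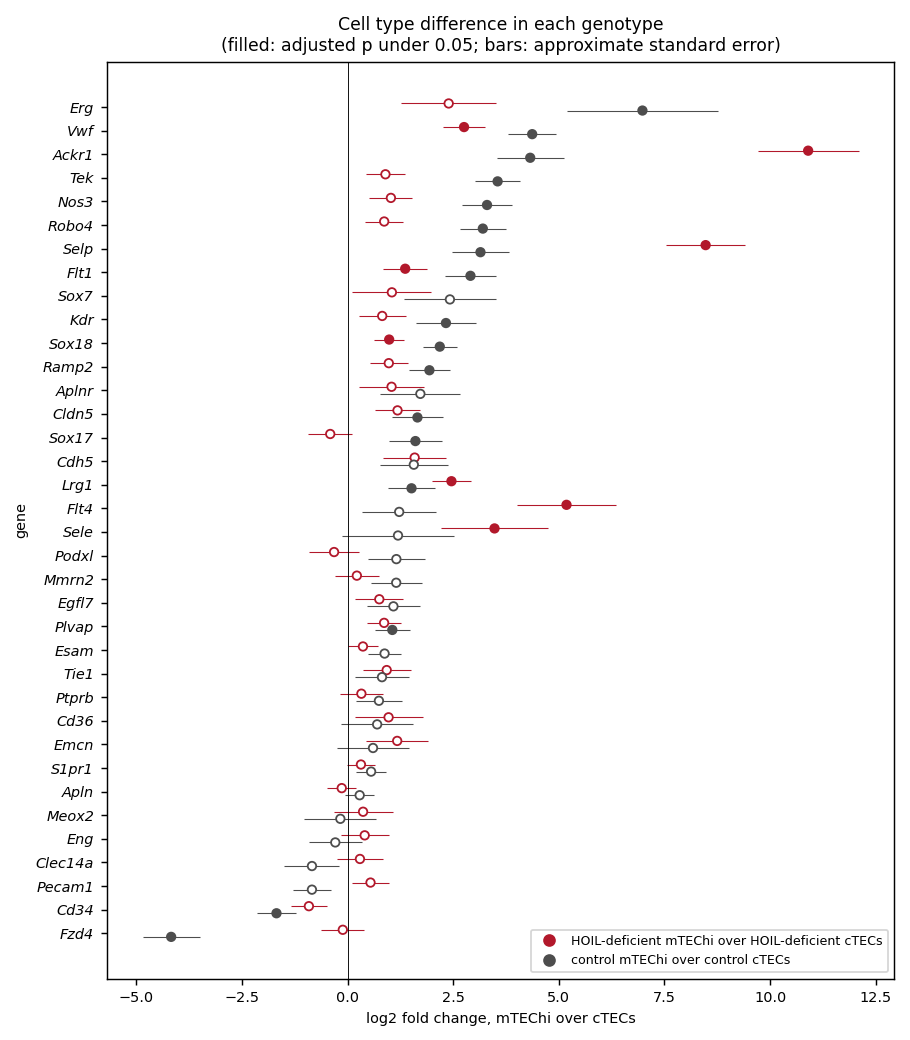
Log2 fold change of each endothelial gene, mTEChi over cTECs, in HOIL-deficient mice (red) and in control mice (grey), filled where the adjusted p was under 0.05, with approximate standard errors as bars. In control mice 6 genes lie left of 0, of which only Fzd4 and Cd34 are filled, and Ackr1, Selp and Flt4 lie farthest right in HOIL-deficient mice. These 3 values, and that of Erg in control mice, rest on cTEC groups with few counts or none and depend on the prior count.

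Per length (RPKM, from CPM and the deposited gene length), the order of levels was read within each group. In HOIL-deficient mTEChi the highest mean was Cd36, at 95.5 ± 82.1 RPKM, followed by Plvap at 57.7 ± 14.4, Ramp2 at 46.6 ± 21.0 and Esam at 41.9 ± 15.5 RPKM. In control mTEChi it was Ramp2, at 17.9 ± 3.94 RPKM, then Plvap at 12.8 ± 5.21 and S1pr1 at 8.37 ± 2.07 RPKM. In HOIL-deficient cTECs Cd36 led at 52.4 ± 37.4 RPKM, then Cd34 at 42.6 ± 14.3, Esam at 35.3 ± 11.7 and Plvap at 34.2 ± 17.3 RPKM, and neighbours lay within 1 SD of each other. In control cTECs Cd34 led at 18.6 ± 9.24 RPKM, then Pecam1 at 6.47 ± 1.54, Plvap at 6.42 ± 2.28 and S1pr1 at 6.05 ± 1.42 RPKM. Plvap and Esam were among the first 6 in all 4 groups.

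Within a group, the same library was often the highest or the lowest across the 36 genes. The share over all tested genes was not counted. Among HOIL-deficient mTEChi, replicate 2 was the highest library for 26 of 36 genes and replicate 1 the lowest for 33. Among control mTEChi, replicate 3 was highest for 20 and replicate 2 lowest for 22. Of the 35 genes with counts in HOIL-deficient cTECs, replicate 2 was highest for 28 and replicate 3 lowest for 26. Control cTEC replicate 2 was lowest for 24 of 35 genes. The libraries share depth and composition within themselves, so these counts are descriptions, with no test.

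A second list of 36 endothelial genes, none of them among the first, was read beside the first. Over all tested genes, 11.3% were called higher and 8.59% lower in mTEChi, and 6.06% and 6.02% in cTECs. These shares are the background for this list and for the lists that follow. In mTEChi 28 of its log2 fold changes were above 0, 12 were called higher and 1, Bmx, lower (-2.37, SE 0.699, adjusted p = 0.0296), and the median log2 fold change was 1.06. In cTECs 30 were above 0 and 12 were called higher, with a median of 2.03. Leading in mTEChi were Hey1 (1.57, SE 0.271, adjusted p = 0.00189), a Notch target, Calcrl (1.50, SE 0.296, adjusted p = 0.00389), the adrenomedullin receptor that Ramp2 serves, and Adgrf5 (2.81, SE 0.662, adjusted p = 0.0101), an adhesion receptor of endothelium. Leading in cTECs were Ecscr (1.61, SE 0.24, adjusted p = 0.00111), Gja4 (2.76, SE 0.516, adjusted p = 0.00421) and Gja5 (3.8 ± 2.9 CPM in HOIL-deficient cTECs and 0.115 ± 0.127 CPM in control cTECs, adjusted p = 0.00475), of which the Gja genes encode connexins of arterial endothelium. The summed level of the second list was 884 to 1238 CPM in HOIL-deficient mTEChi, 399.7 to 499 CPM in control mTEChi, 574 to 815 CPM in HOIL-deficient cTECs and 355 to 428 CPM in control cTECs. Single genes held much of these sums. Hey1 averaged 247 and 191 CPM in HOIL-deficient and control cTECs, where it was not called (0.29, adjusted p = 0.508), and 28.0 and 8.92 CPM in mTEChi. Madcam1 averaged 209 and 96.0 CPM in HOIL-deficient and control mTEChi, and 1.39 and 0.207 CPM in cTECs.

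Ligands and coreceptors of these pathways formed a list of 16 genes. In mTEChi 3 were called higher, Cxcl12 (1.39, SE 0.249, adjusted p = 0.00233), Angpt2 (1.54, SE 0.334, adjusted p = 0.00629) and Adm (0.58, SE 0.184, adjusted p = 0.0414), and 1 lower, Nrp2 (-0.98, SE 0.319, adjusted p = 0.0438). In cTECs 4 were called higher, Nrp1 (2.15, SE 0.324, adjusted p = 0.0012), Angpt2 (2.16, SE 0.357, adjusted p = 0.00215), Pgf (3.53, SE 0.715, adjusted p = 0.00676) and Vegfc (1.93, SE 0.505, adjusted p = 0.0241). Angpt2, the angiopoietin that endothelium itself releases, was thus called higher in both cell types. Vegfa, the ligand of Kdr, was lower in HOIL-deficient cTECs, with 47.7 ± 4.57 CPM against 90.7 ± 16.6 CPM in control cTECs (-1.01, SE 0.21, adjusted p = 0.00763). The medians of the list were 0.46 in mTEChi and 0.78 in cTECs, or 0.44 in cTECs with groups at 0 set to their bound.

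Markers of other cells moved in the same libraries. Of 22 fibroblast and pericyte genes, 6 were called higher in mTEChi, where the list summed to 1092 to 1387 CPM in HOIL-deficient and 517 to 619 CPM in control libraries. In cTECs 11 were called higher, at 3935 to 5533 CPM in HOIL-deficient and 780.2 to 2159 CPM in control libraries. With the smallest p were Myh11 (1.57, SE 0.252, adjusted p = 0.00126), Des (2.01, SE 0.385, adjusted p = 0.00328) and Acta2 (2.06, SE 0.534, adjusted p = 0.0179) in mTEChi, and Tagln (2.74, SE 0.371, adjusted p = 0.000593), Des (2.63, SE 0.403, adjusted p = 0.00137) and Acta2 (3.46, SE 0.561, adjusted p = 0.00232) in cTECs. Col3a1 (2.47, adjusted p = 0.028), Postn (2.93, adjusted p = 0.0215) and Col6a1 (1.06, adjusted p = 0.0208) were also called higher in mTEChi. Rgs5 (-0.23, adjusted p = 0.763) and Pdgfrb (-0.19, adjusted p = 0.84) were not called in mTEChi. Both were called higher in cTECs (2.29, adjusted p = 0.00782, and 2.35, adjusted p = 0.0141). Myh11 was not called in cTECs (0.06, adjusted p = 0.969). Of 13 adipocyte genes tested, 3 were called higher in mTEChi (1492 to 1889.7 CPM in HOIL-deficient, 1173 to 2207 CPM in control libraries). In cTECs 10 were called higher (456 to 839 CPM in HOIL-deficient, 119.5 to 222 CPM in control libraries). Named by the smallest p, these were Cfd (2.90, SE 0.627, adjusted p = 0.00681), Thrsp (0.75, SE 0.1997, adjusted p = 0.0179) and Lpl (0.80, SE 0.256, adjusted p = 0.0419) in mTEChi and Retn, Cfd and Car3 in cTECs. In cTECs Cfd averaged 111 ± 37.3 CPM in HOIL-deficient cTECs and 0.123 ± 0.213 CPM in control cTECs (adjusted p = 0.000183). The part of these cells in the endothelial result was not tested.

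Platelets carry Pecam1, Vwf, Selp, Esam and Cd36 as well. Among 10 platelet and megakaryocyte genes tested, Pf4 was called lower in mTEChi (-1.60, SE 0.422, adjusted p = 0.0178), and the list summed to 51.1 to 59.0 CPM in HOIL-deficient and 77.4 to 89.5 CPM in control libraries. In a library 7 to 11 of the 11 listed genes had a count. In cTECs 5 were called higher, among them Ppbp (3.14, SE 0.748, adjusted p = 0.0157), Pf4 (2.01, SE 0.491, adjusted p = 0.0176) and Clec1b (3.03, SE 0.738, adjusted p = 0.0177), with sums of 15.5 to 113 CPM in HOIL-deficient and 9.95 to 13.4 CPM in control libraries. In HOIL-deficient cTEC replicates 1, 2 and 3 the platelet sums were 15.5, 113 and 52.6 CPM. The sums of the 36 endothelial genes there were 957, 1571 and 586 CPM, so only replicate 2 ranked the same in both. The part of platelet RNA in the endothelial result was not tested in either cell type.

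Thymocyte genes went the other way in cTECs: 14 of 17 were called lower, led by Lck (-1.99, SE 0.369, adjusted p = 0.00411), Cd4 (-1.97, SE 0.388, adjusted p = 0.00558) and Ptprc (-2.03, SE 0.447, adjusted p = 0.0105), with sums of 484 to 939 CPM in HOIL-deficient and 1186 to 4193 CPM in control libraries. In mTEChi the sums were 194 to 344 CPM in HOIL-deficient and 161 to 261 CPM in control libraries, and no gene of the 17 was called by edgeR or passed an unadjusted p under 0.05. Of 13 macrophage and dendritic cell genes, 1 was called in cTECs, Lyz2, as higher (2.20, SE 0.382, adjusted p = 0.00279), where 6.06% of all tested genes were. Their sums in cTECs were 52.8 to 124 CPM in HOIL-deficient and 29.1 to 39.3 CPM in control libraries. In mTEChi the sums were 1003 to 1245 CPM in HOIL-deficient and 819 to 1305 CPM in control libraries, with no call by edgeR and none at an unadjusted p under 0.05. The erythroid list, read because erythroid cells carry Ackr1, summed to 373 to 1453 CPM in HOIL-deficient mTEChi, 331 to 1293 CPM in control mTEChi, 32.4 to 628 CPM in HOIL-deficient cTECs and 155 to 433 CPM in control cTECs. Of 6 erythroid genes tested, 1 was called, Klf1, which was lower in cTECs (adjusted p = 0.0373) with no count in HOIL-deficient libraries and 0.234 ± 0.123 CPM in control libraries. Among 16 genes of TEC identity, 3 were called higher and 1 lower in mTEChi, where 11.3% and 8.59% of all tested genes were. In cTECs 2 were called higher and 4 lower, where 6.06% and 6.02% of all tested genes were. Krt14 (2.73, SE 0.239, adjusted p = 2.78e-05) and Psmb11 (-1.35, SE 0.201, adjusted p = 0.00108) had the smallest p in cTECs.

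**Figure D5:**
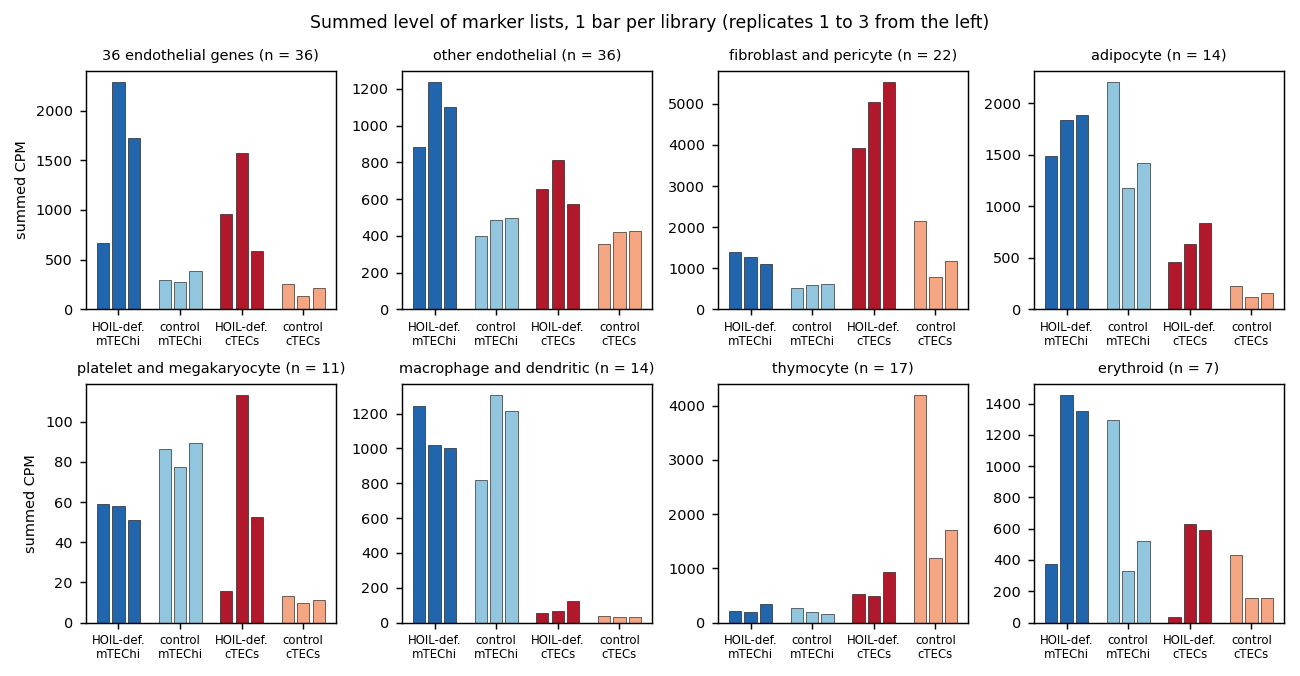
Summed CPM of 8 marker lists, 1 bar per library with replicates 1 to 3 from the left in each group. Sums of both endothelial lists and of the fibroblast and pericyte list are higher in all HOIL-deficient libraries than in the controls of the same cell type, the platelet list is lower in HOIL-deficient mTEChi, and the thymocyte list is highest in control cTECs.

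Several of the genes share exonic bases with a neighbour, and the sources used here do not say whether counting used strand, so reads of these pairs may not be told apart. Ramp2 shares up to 637 bases of an exon with Vps25 on the same strand, Ackr1 shares 284 with Cadm3 on the same strand, Nos3 shares 294 with Atg9b on the opposite strand and Sox17 shares 804 with Gm37587 on the opposite strand. Vps25 averaged 153 CPM in HOIL-deficient mTEChi, 153 in control mTEChi, 177 in HOIL-deficient cTECs and 160.3 in control cTECs. Atg9b averaged 2.16 CPM in HOIL-deficient mTEChi and 12.3 CPM in control mTEChi, and was below 1 CPM in the cTEC groups. Cadm3 stayed at or below 2.51 CPM in every group's mean, under Ackr1 in mTEChi. Selp, Cd34, Egfl7 and Eng also share exonic bases with opposite-strand genes.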

How the data were processed

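RNA-seq libraries (SMART-Seq v4, paired end) of sorted TECs were counted per gene by the authors with featureCounts on mm10, per the submitters' processing notes. The sources used here give no aligner, annotation or strandedness. The deposited values are raw counts for 27179 genes, of which 25275 had a symbol, and 4.53 to 6.10% of counts had none. Symbols, coordinates and promoters are from RefSeq tables (GRCm38.p6, the assembly that mm10 names), matched by Entrez ID. All 12 libraries were fitted together in edgeR 4.0.16 (R 4.3.3) with TMM scaling, filterByExpr and robust quasi-likelihood tests, with 1 coefficient per group. P-values were adjusted over all 19398 tested genes. CPM used library totals without TMM. SE is the log2 fold change over the root of F and is approximate. Floors are 3 counts over a group, and intervals are exact at 95% and cover counting error only. Printed promoters are up to 250 bases before the RefSeq start, trimmed before any annotated exon. Values per library are given for Pecam1, for called genes with the smallest p (up to 8 in each HOIL comparison and 5 in the others) and for uncalled genes reaching 10 CPM, and Cd36, Sele and Erg were added after their values were seen. Of other lists, up to 3 called genes with the smallest p are given; further ones were named after their values were seen. Alternatives used DESeq2 1.42.0 and limma 3.58.1. The tests were checked on simulated data. A result of the platelet list is not reported here. The genes and lists were chosen with earlier results of these data known.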

Additional observations from a re-analysis of the deposited data

Results flagged for a closer look

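The effect of HOIL deficiency differed between mTEChi and cTECs for 4 of the 36 endothelial genes, by the test of the difference itself. It was larger in mTEChi for Fzd4 (log2 difference 4.06), Selp (5.33) and Ackr1 (6.58), and smaller in mTEChi for Tek (-2.66). Selp and Ackr1 had at most 1 count in HOIL-deficient cTECs, and Fzd4 and Tek had counts in every library.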

How the results depend on the processing

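No log2 fold change of a called gene turned its direction under any alternative. Of values for single genes, 427 kept their side of the threshold in the cTEC comparison, 64 lost a call and 8 gained one. In mTEChi 450 kept it, 44 lost a call and 10 gained one. The count of 26 genes higher in HOIL-deficient cTECs was 15 by limma-voom and 18 to 27 when 1 library was left out. The 1 gene lower there was 0 with RLE scaling, with upper-quartile scaling, with male libraries only and with only the groups compared (31 of the genes tested), 3 by DESeq2, and 0 to 2 when 1 library was left out. The 23 genes higher in HOIL-deficient mTEChi were 14 to 26 when 1 library was left out. For the difference between the effects, the 1 gene lower was 2 with RLE scaling, upper-quartile scaling or male libraries only, 3 by DESeq2, and 0 to 2 when 1 library was left out; the 3 genes higher were 2 to 3, and the median difference of the 36 genes (-0.37) was -0.62 to 0.28. Over all genes, the difference called 1159 higher and 749 lower, against 714 and 873 with RLE scaling and 651 and 899 with upper-quartile scaling. The 8 genes higher in HOIL-deficient mTEChi than cTECs were 15 by limma-voom, 5 with only the groups compared and 5 to 16 when 1 library was left out. The 15 genes higher in control mTEChi than cTECs were 11 to 18 when 1 library was left out. The causes were not tested. Deviations of same-numbered libraries of different groups had correlations of -0.16 to 0.098 over 18 pairs, against -0.076 to 0.162 over 36 other pairs. Between the cell types of HOIL-deficient mice, same-numbered pairs were at 0.049, 0.078 and 0.035, above the other pairs (-0.06 to 0.019). In control mice such pairs were at 0, 0.098 and -0.037, against -0.055 to 0.063 for the other pairs. These small correlations do not decide whether same-numbered libraries came from the same mice. With a replicate block, 21 genes were higher in cTECs and 1, Selp, was lower, while Flt4 lost its call. In mTEChi 20 were higher with this block. For the difference 2 were higher and 1 lower. Between cell types 13 were higher and 2 lower in control mTEChi, and 7 were higher in HOIL-deficient mTEChi. Depth limits Flt4, Erg, Selp, Sele and Ackr1 in cTECs.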

Other observations

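Of the second endothelial list, a venular and a lymphatic gene were read in mTEChi, where neither was called. Madcam1, the addressin of gut venules, had 256, 161 and 212 CPM in HOIL-deficient mTEChi, against 55.3, 130.2 and 103 CPM in control mTEChi. All 3 HOIL-deficient mTEChi libraries were above the control ones, but the gene did not pass the test (log2 fold change 1.08 with SE 0.63 and adjusted p = 0.252). Prox1, the regulator of lymphatic identity, had 0.986, 0 and 1.68 CPM in HOIL-deficient mTEChi, against 5.73, 3.52 and 3.24 CPM in control mTEChi, with the lower values in HOIL-deficient libraries (log2 fold change -2.27 with SE 1.17 and adjusted p = 0.188). These genes were chosen after their values were seen.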
